A study of Mus musculus with 2 samples.

Results

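The 10 Sox genes Sox1, Sox2, Sox3, Sox4, Sox11, Sox5, Sox6, Sox8, Sox9 and Sox18 were followed in RNA sequencing of mouse medulloblastoma, a tumour of the cerebellum. They are 10 of the 23746 gene records in the deposited tables, found by gene symbol with 1 record each. They were selected on the Brg1KO and WT FPKM values, Sox18 among them with 1 of the lowest ratios of the whole table. All values below are therefore a description of this set, with no test. FPKM is a fragment count per gene, corrected for the length of the transcript and for how many fragments the library has.

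Primary tumour tissue was taken from 2 genotypes, with 1 library of total RNA each, so differences carry no replicate error and no p-value. The Brg1KO tumour came from a mouse labelled CAG-CreER, Rosa26-SmoM2, Brg1F/F, in which Cre recombinase deletes the loxP-flanked alleles of Brg1, the chromatin remodelling ATPase encoded by Smarca4. The WT tumour came from a mouse labelled CAG-CreER, Rosa26-SmoM2, Brg1+/+. Both genotypes carried the tamoxifen-inducible Cre under the broadly active CAG promoter and SmoM2, an activated form of the Hedgehog signal transducer Smoothened, and both received 10 tamoxifen injections. Neither the deletion nor SmoM2 is limited to tumour cells by these alleles, and the labels give neither age nor sex nor the number of animals behind a library.

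Sox proteins are transcription factors that bind and bend DNA through an HMG box, and they are sorted into subgroups by the sequence of that box. SoxB1 factors maintain neural progenitors, SoxC factors act in immature neurons, SoxD and SoxE factors shape glial lineages and cartilage, and SoxF factors act in the endothelium of blood and lymph vessels. In the cerebellum, Sox1 and Sox2 mark progenitors and Bergmann glia, and Sox2 also marks a rare, slowly dividing cell population of Hedgehog-driven medulloblastoma.

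The sum of FPKM over all records was 343028 in the Brg1KO library and 388032 in the WT library, and the depth of both is unknown because no read counts were used. Smarca4 had 3.76 FPKM in the Brg1KO library and 14.0 FPKM in the WT library, a whole-gene value that includes exons outside the deleted part. Markers of dividing cells were lower in the Brg1KO library (12 of 12 at least 2-fold) and markers of Purkinje cells, which are mature neurons, were higher (7 of 7 expressed genes). The libraries also differed in genes that mark the sex of the animal: Xist had 0.369 FPKM in the Brg1KO library and 268.3 FPKM in the WT library, while Y-linked Ddx3y had 25.1 FPKM in the Brg1KO library and 0.00687 FPKM in the WT library. Genotype and sex therefore cannot be told apart here. Of the 10 genes, Sox3 is the X-linked one. The deposited tables give each FPKM with a lower and an upper bound, but the FPKM lies outside its own bounds in 51.2% of expressed records of the Brg1KO library and 49.0% of the WT library. Log2 ratios were therefore computed from both the FPKM and the midpoint of the bounds, as log2 of (Brg1KO + 1)/(WT + 1), with 1 FPKM added to each value, which makes ratios of weakly expressed genes smaller.

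Sox18 stood far below its WT level in the Brg1KO library, Sox1 was also more than 2-fold lower, and none of the 10 genes was at least 2-fold higher on the scale used. A record counted as expressed when either library reached 1 FPKM, as for 9 of the 10 genes, and Sox3 stayed below. Of these 9, 2 were at least 2-fold lower (log2 ratio of at most -1), beside 8.67% of the 13279 expressed records, and 0 were at least 2-fold higher, beside 16.1% of the expressed records. From the bound midpoints 3 were lower, with Sox9 added, and 0 were higher. The median log2 ratio was -0.30 over the 9 genes and 0.09 over the expressed records. Without Sox18 the median of the remaining genes was -0.18. The shares over all expressed records are also the background for every gene-list count here.

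**Figure D1:**
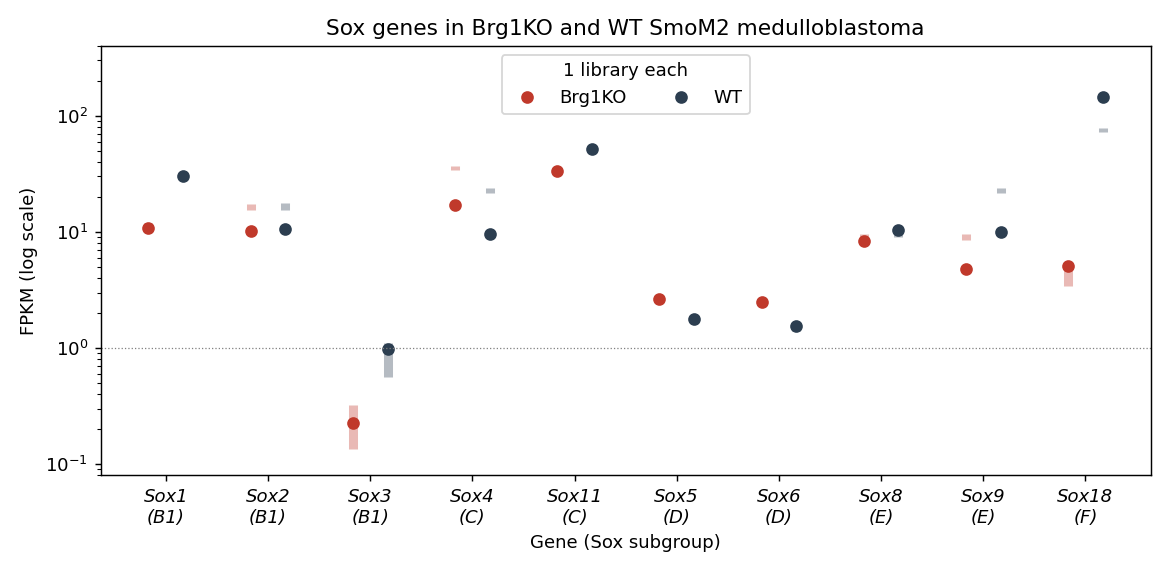
FPKM on a log scale of each Sox gene in the Brg1KO (red, left) and WT (blue, right) library, with 1 library each; points are the deposited FPKM, shaded bars the deposited lower to upper bound, and the dotted line 1 FPKM. Sox18 has the widest gap, 5.06 against 145.2 FPKM, and the FPKM of Sox2, Sox4 and Sox9 lie below their own bounds in both libraries.

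Sox18, the SoxF member and a regulator of blood and lymph vessel development, is a 2-exon gene on the minus strand of chromosome 2 (181669837 to 181671640, mm10). It had 5.06 FPKM in the Brg1KO library, with deposited bounds of 3.41 and 4.73, and 145.2 FPKM in the WT library, with bounds of 71.99 and 77.97. The Brg1KO level was 3.49% of the WT level, a 28.7-fold difference, and the log2 ratio was -4.59. Only 20 of the 13279 expressed records had a lower log2 ratio. Both FPKM values lie above their upper bounds, and the WT value is 1.94 times the midpoint of its bounds. From the midpoints, 4.07 in the Brg1KO library and 74.98 in the WT library, the difference was 18.4-fold and the log2 ratio -3.91. The lowest and highest log2 ratios that the bounds allow are -4.16 and -3.67, so the size of the difference depends on which deposited estimate is read, while its direction does not.

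Sox18 made up 5.33% of the summed FPKM of the 10 genes in the Brg1KO library and 53.4% in the WT library, where it was the highest of them. By bound midpoints its share was 3.28% in Brg1KO and 32.1% in WT. Among all expressed records, 68.3% had a higher FPKM than Sox18 in the Brg1KO library and 2.88% did in the WT library.

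The other SoxF genes, which act beside Sox18 in vessels, were far weaker and did not share a direction. Sox7 had 0.222 FPKM in the Brg1KO library and 1.14 FPKM in the WT library (log2 ratio -0.81). Sox17 had 0.612 FPKM in the Brg1KO library and 0.166 FPKM in the WT library, under 1 FPKM in both. Without the added 1 FPKM their log2 ratios were -2.36 for Sox7 and 1.89 for Sox17.

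Because SoxF genes are best known from vessels, endothelial markers were read beside Sox18. All 16 had a higher FPKM in the Brg1KO library. Of the 14 expressed 5 were at least 2-fold higher, beside 16.1% of all expressed records, and 0 lower, beside 8.67%. The median log2 ratio of the 14 was 0.83. Flt1, Plvap, Tek, Tie1 and Vwf reached 1 FPKM only in the Brg1KO library, so they entered this count and median through that library alone. The summed FPKM of the 16 markers was 171.9 in the Brg1KO library and 56.2 in the WT library, and none was listed at 0. The largest parts of the Brg1KO sum were Ly6c1 with 66.5 FPKM and Slc2a1 with 42.5 FPKM. For Kdr, Esam and Tie1 the deposited bounds allow log2 ratios on both sides of 0. Kdr was nearly level, with 0.906 FPKM in the Brg1KO library and 0.813 FPKM in the WT library. Cdh5, the cadherin of endothelial junctions, had 1.97 FPKM in the Brg1KO library and 1.43 FPKM in the WT library. Pecam1, another junction protein of the endothelium, had 4.27 FPKM in the Brg1KO library and 1.29 FPKM in the WT library. In the Brg1KO library 6 of the 16 markers lay above Sox18, whereas in the WT library all 16 lay below it, between 0.320 and 10.9 FPKM. Sox18 and these markers thus differed in opposite directions between the libraries.

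**Figure D2:**
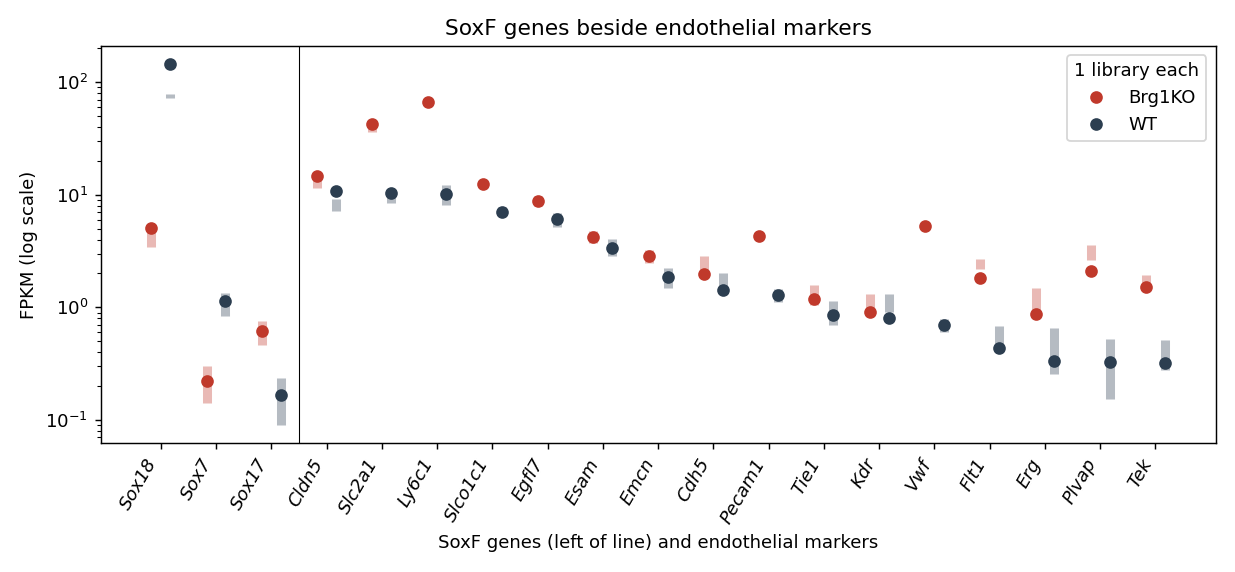
FPKM on a log scale of the SoxF genes (left of the line) and 16 endothelial markers in the Brg1KO (red, left) and WT (blue, right) library, with the deposited bounds as shaded bars. All 16 markers are higher in the Brg1KO library and sit at 10.9 FPKM or less in the WT library, where Sox18 is at 145.2 FPKM.

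The markers at least 2-fold higher with the largest ratios were Ly6c1 (66.5 FPKM in Brg1KO and 10.2 FPKM in WT), the glucose transporter gene Slc2a1 (42.5 FPKM in Brg1KO and 10.3 FPKM in WT), Vwf, which encodes von Willebrand factor (5.32 FPKM in Brg1KO and 0.698 FPKM in WT), and Plvap (2.11 FPKM in Brg1KO and 0.325 FPKM in WT). Of 5 lymphatic markers 3 were expressed and, beside 16.1% of all expressed records, 1 of these 3 was at least 2-fold higher. This was the weakly expressed Lyve1, with 1.89 FPKM in the Brg1KO library and 0.152 FPKM in the WT library. Prox1, the lymphatic regulator that Sox18 is known to switch on, which is also expressed in neural cells, had 4.07 FPKM in the Brg1KO library and 5.52 FPKM in the WT library (log2 ratio -0.36), and Pdpn had 25.3 FPKM in Brg1KO and 15.7 FPKM in WT. Markers of pericytes, fibroblasts and meninges were at least 2-fold higher for 4 of 9 genes, beside 16.1% of all expressed records, and lower for 0. The 4 were Vtn (37.8 FPKM in Brg1KO and 7.34 FPKM in WT), Slc6a13 (7.94 FPKM in Brg1KO and 1.13 FPKM in WT), Dcn (71.6 FPKM in Brg1KO and 18.7 FPKM in WT) and Col1a2 (7.50 FPKM in Brg1KO and 1.72 FPKM in WT). Within 2-fold, Cspg4 (1.71 FPKM in Brg1KO and 3.09 FPKM in WT) and Lum (5.48 FPKM in Brg1KO and 7.63 FPKM in WT) were lower. Col1a1, Pdgfrb and Rgs5 were higher within 2-fold.

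The genes around Sox18 did not follow it. Of 12 other expressed records within 250 kb, 2 were at least 2-fold higher, 1 lower and 9 within 2-fold, with a median log2 ratio of 0.19. These counts lie near the shares over all expressed records, 16.1% higher and 8.67% lower. The nearest expressed gene on 1 side, the splicing factor gene Prpf6, lies 14.2 kb away and had 12.8 FPKM in the Brg1KO library and 8.94 FPKM in the WT library. On the other side, 8.67 kb away, Tcea2, which encodes a transcription elongation factor, had 12.2 FPKM in the Brg1KO library and 10.2 FPKM in the WT library. The lower record was Rgs19, a regulator of G protein signalling, with 5.97 FPKM in Brg1KO and 13.7 FPKM in WT (log2 ratio -1.07, or -0.91 with equal FPKM totals). The highest was Oprl1, an opioid-related receptor gene, with 11.9 FPKM in Brg1KO and 2.46 FPKM in WT (log2 ratio 1.90). No exon of another gene in GENCODE M21 overlaps an exon of Sox18.

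**Figure D3:**
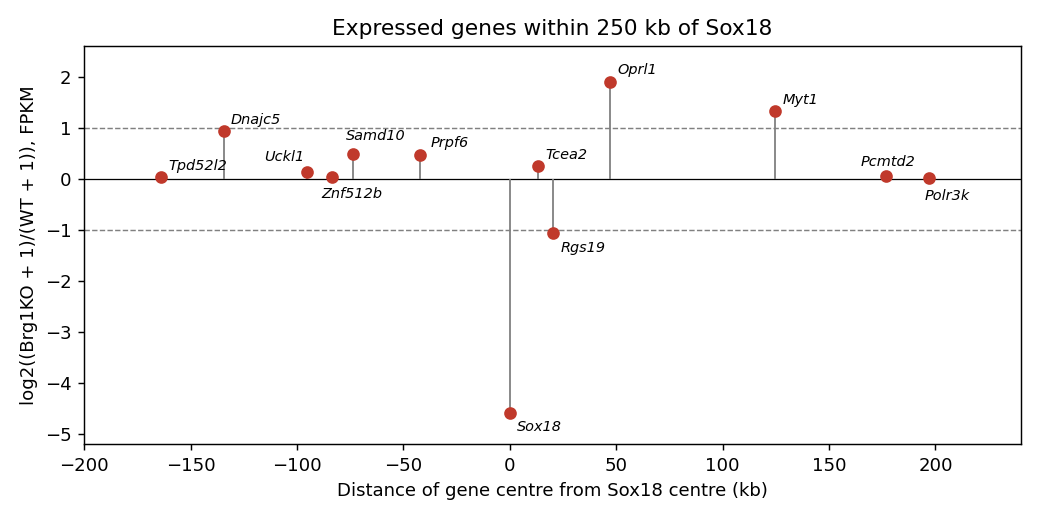
Log2 ratio of Brg1KO over WT, from FPKM + 1, for the expressed records within 250 kb of Sox18, by distance of gene centres in kb; dashed lines mark 2-fold. Sox18 at -4.59 stands alone between neighbours that range from -1.07 (Rgs19) to 1.90 (Oprl1).

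The records closest to Sox18 in level were looked up by Euclidean distance in log2(FPKM + 1) over the 2 libraries, without unnamed models and small RNA genes. They were the splicing factor gene Cwc22 (distance 0.65), the glucocorticoid-inactivating enzyme gene Hsd11b2 (0.93), the oncogene Mycn (0.995), the Hedgehog effector Gli1 (1.01) and Siva1 (1.31). Gli1 had 9.03 FPKM in the Brg1KO library and 89.2 FPKM in the WT library, and Siva1, which encodes a protein linked to apoptosis, had 11.3 FPKM in Brg1KO and 82.0 FPKM in WT. With 2 libraries this likeness rests on 2 values per gene. The distances were computed from FPKM alone, and their order by midpoints was not looked up. In the WT library Sox18 had 145.2 FPKM and a midpoint of 74.98, and Mycn had 85.8 FPKM and a midpoint of 131.6.

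Of the SoxB1 genes Sox1 and Sox3 had lower FPKM in the Brg1KO library and Sox2 was nearly level. Sox1 (chromosome 8, 12395519 to 12399555) had 10.8 FPKM in the Brg1KO library and 30.4 FPKM in the WT library. It was 2.81-fold lower, with a log2 ratio of -1.41 from FPKM and -1.30 from the bound midpoints, and both FPKM values lay within their bounds. Sox2 (chromosome 3, 34650005 to 34652460) had 10.2 FPKM in the Brg1KO library and 10.5 FPKM in the WT library. Its log2 ratio was -0.05 from FPKM and -0.01 from the midpoints of 16.5 and 16.6, and 0.11 with equal FPKM totals in both libraries, so no direction can be given. The FPKM of Sox1 was 1.06 times that of Sox2 in the Brg1KO library and 2.88 times in the WT library, and by midpoints it was 0.686 times in the Brg1KO library and 1.77 times in the WT library.

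Sox3 (chromosome X, 60891366 to 60893430), which acts in progenitors of the brain and pituitary, had 0.225 FPKM in the Brg1KO library and 0.970 FPKM in the WT library. The FPKM ratio is 4.31-fold and the deposited bounds, 0.133 to 0.322 in Brg1KO and 0.561 to 1.11 in WT, do not overlap, but with 1 FPKM added the log2 ratio was -0.69. The SoxB1 genes summed to 21.2 FPKM in the Brg1KO library and 41.9 FPKM in the WT library (log2 ratio -0.95). The sum was at most -1 only after centring on the median of all expressed records (-1.04).

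The promoters of Sox1 and Sox2, the SoxB1 pair in which 1 gene was lower and the other was not, are shown for comparison. They were taken from RefSeq (GRCm38.p6, the assembly also called mm10) as 250 bases before to 50 bases after the annotated start. Such sequences were at hand for 7 of the 10 genes. Capitals mark exact matches, on either strand, to the Gli core CCACCCA, the E-boxes CAGCTG and CAGATG, the Sox core motifs ACAAAG and ACAATG, or the Ets core CCGGAA.
Sox1 promoter, chr8:12395269-12395568, plus strand: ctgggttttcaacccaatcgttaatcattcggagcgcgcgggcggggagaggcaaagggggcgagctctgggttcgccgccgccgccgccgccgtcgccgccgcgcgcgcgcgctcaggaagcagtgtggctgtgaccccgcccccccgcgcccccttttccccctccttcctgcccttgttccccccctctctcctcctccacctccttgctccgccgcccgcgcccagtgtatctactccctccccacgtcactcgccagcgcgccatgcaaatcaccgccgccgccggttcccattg
Sox2 promoter, chr3:34649745-34650044, plus strand: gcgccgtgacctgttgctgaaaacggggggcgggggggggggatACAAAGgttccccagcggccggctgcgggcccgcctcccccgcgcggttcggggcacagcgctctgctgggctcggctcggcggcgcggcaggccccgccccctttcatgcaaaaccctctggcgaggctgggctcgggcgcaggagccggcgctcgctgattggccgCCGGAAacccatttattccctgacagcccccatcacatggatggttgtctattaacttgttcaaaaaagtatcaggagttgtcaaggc
The Sox1 window held 0 of these motifs and 37 CG dinucleotides, a number that 5.58% of the 32851 RefSeq mouse promoters reach. The Sox2 window held 1 ACAAAG, 206 bases before the start, and 1 CCGGAA, 38 bases before it, along with 27 CG dinucleotides, which 15.5% of promoters reach. At least 1 ACAAAG occurs in 18.7% and at least 1 CCGGAA in 14.9% of all promoters of this length, and a match is a description, not a binding site.

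The transcript Sox2ot overlaps Sox2 and had 1.15 FPKM in the Brg1KO library and 0.816 FPKM in the WT library. The non-coding record Gm5607 overlaps Sox1 and had 1.43 FPKM in the Brg1KO library and 1.69 FPKM in the WT library. GENCODE M21 also places the microRNA model Gm25239 within the exon of Sox1 on the same strand, and its level was not analysed here, so its reads and those of Sox1 cannot be told apart. Strand use in counting was not stated in the sources read. Sox2ot and Gm5607 had lower FPKM than Sox2 and Sox1 in both libraries.

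Sox partner factors and progenitor genes were read beside SoxB1. Of 10 expressed partner factors and cofactors 0 were at least 2-fold higher, beside 16.1% of all expressed records, and the median log2 ratio was -0.36. Beside 8.67% of all expressed records, 2 of the 10 were at least 2-fold lower. These were the POU factor genes Pou3f2 (2.50 FPKM in Brg1KO and 8.85 FPKM in WT) and Pou3f4 (1.83 FPKM in Brg1KO and 5.08 FPKM in WT), which encode partners of Sox2 and Sox11 on neural enhancers. For Pou3f4 the log2 ratio was -0.91 from the midpoints and -0.97 with equal FPKM totals, inside the 2-fold limit. Of 12 expressed progenitor genes 5 passed 2-fold downward and 0 upward, beside the same shares, with a median of -0.67. They included the Notch target Hes5 (0.984 FPKM in Brg1KO and 17.6 FPKM in WT), the Hedgehog effector Gli2 (1.62 FPKM in Brg1KO and 16.9 FPKM in WT), the cyclin gene Ccnd1 (16.6 FPKM in Brg1KO and 107.1 FPKM in WT) and the lipid-binding radial glia gene Fabp7 (86.04 FPKM in Brg1KO and 425.4 FPKM in WT). Within 2-fold the list went both ways. Among the higher genes, Vim had 140.0 FPKM in Brg1KO and 78.1 FPKM in WT, and Pax6 had 32.0 FPKM in Brg1KO and 18.1 FPKM in WT. Granule neuron precursor genes were at least 2-fold lower for 4 of 9 and higher for 0, among them Cxcr4 (14.7 FPKM in Brg1KO and 195.7 FPKM in WT) and Atoh1 (10.4 FPKM in Brg1KO and 67.0 FPKM in WT). Pax6, also in this list, was higher within 2-fold, and Zic1 had a log2 ratio of 0.42 from FPKM and 0.01 from midpoints. Fewer cells of a type and less RNA per cell cannot be told apart in bulk tumour RNA. The part of cell composition in the lower Sox1 level was not tested.

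The SoxC genes, which promote neuronal differentiation and are highest in newborn neurons, differed in opposite directions, each within 2-fold. Sox4 (chromosome 13, 28950730 to 28953682) had 17.1 FPKM in the Brg1KO library and 9.55 FPKM in the WT library, a 1.79-fold higher value with a log2 ratio of 0.78. Sox11 (chromosome 12, 27334268 to 27342718) had 33.5 FPKM in the Brg1KO library and 51.3 FPKM in the WT library, a 1.53-fold lower value with a log2 ratio of -0.60. From the midpoints the log2 ratios were 0.62 for Sox4 and -0.66 for Sox11. The FPKM of Sox4 was 0.484 times its midpoint in Brg1KO and 0.421 times in WT, so its level depends on the estimate by that factor. By midpoints Sox4 had 35.3 in the Brg1KO library, just above Sox11 with 33.5, and 22.7 in the WT library, below Sox11 with 53.4. The pair summed to 50.6 FPKM in the Brg1KO library and 60.9 FPKM in the WT library (log2 ratio -0.26). It made up 53.3% of the summed FPKM of the 10 genes in Brg1KO and 22.4% in WT, where Sox18 took the larger share.

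The third SoxC gene, Sox12, had 6.28 FPKM in the Brg1KO library and 13.3 FPKM in the WT library (log2 ratio -0.97 from FPKM and -1.07 from midpoints), so it lay at the 2-fold limit and in the direction of Sox11. The non-coding gene Gm26735 overlaps an exon of Sox4 on the opposite strand in GENCODE M21, and without strand the reads of both cannot be told apart. The promoters of Sox4 and Sox11, paired here because the genes differed in opposite directions, each held 1 of the motifs searched.
Sox4 promoter, chr13:28953650-28953949, minus strand: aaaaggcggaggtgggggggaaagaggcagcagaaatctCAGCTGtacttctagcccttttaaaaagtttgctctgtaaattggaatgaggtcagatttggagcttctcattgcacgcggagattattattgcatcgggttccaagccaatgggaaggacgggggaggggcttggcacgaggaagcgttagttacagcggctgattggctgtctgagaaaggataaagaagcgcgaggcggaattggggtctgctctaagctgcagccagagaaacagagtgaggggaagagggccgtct
Sox11 promoter, chr12:27342669-27342968, minus strand: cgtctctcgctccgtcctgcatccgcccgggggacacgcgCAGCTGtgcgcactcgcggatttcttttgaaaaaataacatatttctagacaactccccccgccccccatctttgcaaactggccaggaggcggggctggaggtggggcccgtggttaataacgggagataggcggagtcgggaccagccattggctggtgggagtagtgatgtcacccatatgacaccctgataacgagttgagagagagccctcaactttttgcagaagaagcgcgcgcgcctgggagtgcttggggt
In both the capitals mark the E-box CAGCTG, 211 bases before the start of Sox4 and 210 bases before the start of Sox11. At least 1 CAGCTG occurs in 16.3% of all promoters of this length. The Sox4 window held 12 CG dinucleotides and the Sox11 window 21.

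A list made of pan-neuronal genes and several known SoxC targets had 11 expressed genes. Of these, 5 were at least 2-fold higher in the Brg1KO library, 1 was lower and 5 were within 2-fold. The median log2 ratio was 0.51. The synaptic genes Syt1 (21.2 FPKM in Brg1KO and 0.854 FPKM in WT) and Snap25 (375.5 FPKM in Brg1KO and 57.6 FPKM in WT) were among the higher ones. Those within 2-fold were Elavl3, Elavl4, Gap43, Rbfox3 and Tubb3, with log2 ratios from -0.29 (Gap43) to 0.51 (Elavl4). Dcx had 64.6 FPKM in the Brg1KO library and was listed at 0 in the WT library with the status FAIL, so its ratio is not read. Without Dcx, left out after its values were seen, 4 of 10 genes were at least 2-fold higher and 1 was lower, with a median of 0.41. The lower gene was Tead2, which encodes a transcription factor of the Hippo pathway and is listed as a SoxC target, not as a pan-neuronal gene. It had 11.7 FPKM in Brg1KO and 53.3 FPKM in WT. Mature granule neuron genes were at least 2-fold higher for 9 of 9 genes, among them Gabra6, a GABA receptor subunit gene (143.1 FPKM in Brg1KO and 1.24 FPKM in WT). Sox4 and Sox11 thus stayed within 2-fold, in opposite directions. The pan-neuronal list was split, since 5 genes also stayed within 2-fold while, without Dcx, 4 of 10 were higher and 1 was lower. The 9 mature granule neuron genes all passed 2-fold upward.

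The SoxD genes were both somewhat higher in the Brg1KO library. SoxD proteins have no activation domain of their own and modulate the action of SoxE proteins in glia and cartilage. Sox5 (chromosome 6, 143828425 to 144209568) had 2.63 FPKM in the Brg1KO library and 1.78 FPKM in the WT library (log2 ratio 0.38). Sox6 (chromosome 7, 115471344 to 116038744) had 2.51 FPKM in the Brg1KO library and 1.53 FPKM in the WT library (log2 ratio 0.47). The ratios were 1.48-fold and 1.64-fold, with FPKM at the middle of the deposited bounds in both libraries. The interquartile range of all expressed records, from -0.41 to 0.68, holds both log2 ratios. The third SoxD gene, Sox13, had 1.15 FPKM in Brg1KO and 1.09 FPKM in WT.

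The SoxE genes, which specify glia, both had lower values in the Brg1KO library, Sox9 close to the 2-fold limit. Sox9 (chromosome 11, 112782210 to 112787757), a gene of astrocytes and Bergmann glia, had 4.74 FPKM in the Brg1KO library and 10.1 FPKM in the WT library, a 2.12-fold lower value. With 1 FPKM added its log2 ratio was -0.95. From the bound midpoints, 9.09 in Brg1KO and 22.8 in WT, the log2 ratio was -1.24, so the estimate decides on which side of the limit Sox9 falls. Its FPKM lay below both lower bounds, 8.54 in Brg1KO and 21.7 in WT. Sox8 (chromosome 17, 25565893 to 25570686), an oligodendrocyte and astrocyte gene, had 8.27 FPKM in the Brg1KO library and 10.4 FPKM in the WT library (log2 ratio -0.30). The third SoxE gene, Sox10, which marks the oligodendrocyte lineage, had 4.92 FPKM in the Brg1KO library and 3.98 FPKM in the WT library (log2 ratio 0.25). In the deposited positions the record 2810468N07Rik begins 124 bases from Sox8 and does not overlap it. In GENCODE M21, which may not be the annotation used for counting, 2810468N07Rik overlaps an exon of Sox8 on the opposite strand. It had 13.8 FPKM in the Brg1KO library and 6.97 FPKM in the WT library, and any reads from it counted toward Sox8 cannot be told apart without strand.

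The astrocyte and myelin lists differed the other way from Sox9, and the oligodendrocyte precursor list did not. Of 12 astrocyte and Bergmann glia genes 10 were at least 2-fold higher in the Brg1KO library and 1, Nfia, was lower, with a median log2 ratio of 1.78. From the bound midpoints 8 were higher and 1 was lower. The glycolytic enzyme gene Aldoc had 911.9 FPKM in Brg1KO and 64.6 FPKM in WT, the intermediate filament gene Gfap 628.8 FPKM in Brg1KO and 83.5 FPKM in WT, the gap junction gene Gja1 138.1 FPKM in Brg1KO and 17.6 FPKM in WT, and the Bergmann glia gene Gdf10 47.7 FPKM in Brg1KO and 6.26 FPKM in WT. Sox9, a transcription factor of the same cells, had the lower Brg1KO values given above. Of 8 expressed myelin genes 8 were at least 2-fold higher, among them Mbp (351.1 FPKM in Brg1KO and 31.1 FPKM in WT), Mal (36.2 FPKM in Brg1KO and 1.10 FPKM in WT) and Mobp (26.1 FPKM in Brg1KO and 0.505 FPKM in WT). Of 7 oligodendrocyte precursor genes, with a median log2 ratio of -0.59, 3 were at least 2-fold lower, Olig2 (9.23 FPKM in Brg1KO and 42.0 FPKM in WT), Pdgfra (15.3 FPKM in Brg1KO and 45.3 FPKM in WT) and Olig1 (35.6 FPKM in Brg1KO and 89.0 FPKM in WT), and 1 was higher, Gpr17, a gene of committed precursors (14.4 FPKM in Brg1KO and 3.62 FPKM in WT). Olig1 had a log2 ratio of -0.92 from the midpoints. Sox10 stayed within 2-fold between these lists.

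**Figure D4:**
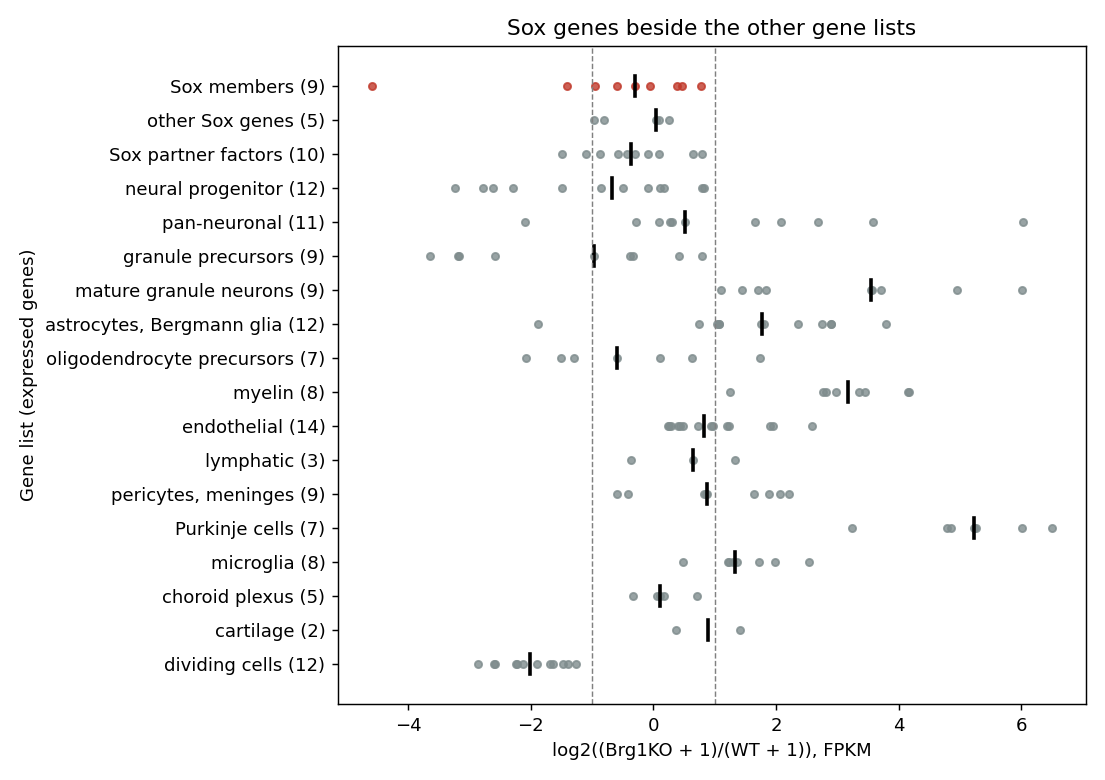
Log2 ratio of Brg1KO over WT, from FPKM + 1, for each expressed gene of each list (points; number of genes in brackets) with the list median as a black bar; dashed lines mark 2-fold, and Sox genes are red at the top. With 1 FPKM added, the Sox genes other than Sox18 and Sox1 stay within 2-fold. Mature neuron, myelin and most astrocyte genes lie to the right and dividing-cell genes (median -2.02) to the left. The rightmost pan-neuronal point is Dcx, listed at 0 in WT.

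Cartilage matrix genes, textbook targets of Sox9 with Sox5 and Sox6, were expressed for 2 of 7. These were Col9a1 (2.40 FPKM in Brg1KO and 0.275 FPKM in WT) and Col11a2 (1.18 FPKM in Brg1KO and 0.699 FPKM in WT), and both reached 1 FPKM only in the Brg1KO library. Of the genes under 1 FPKM in both libraries, Col2a1 was lower in Brg1KO (0.323 FPKM in Brg1KO and 0.727 FPKM in WT). Acan, Comp, Hapln1 and Matn1 had higher FPKM in Brg1KO. Of 8 genes that mark microglia and macrophages 7 were at least 2-fold higher, and of 5 choroid plexus markers 0 were past 2-fold either way, with Ttr at 1069.9 FPKM in Brg1KO and 997.4 FPKM in WT.

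The nearest expressed record on each side was also read for the 9 Sox genes other than Sox18, at distances of 0.124 to 3680.7 kb. Of these 18 records 4 were at least 2-fold higher, beside 16.1% of all expressed records, and 1 was lower, beside 8.67%. The other 13 were within 2-fold, and the median log2 ratio was 0.31. The lower record was the ribosomal protein gene Rps7, which lies 1288.1 kb from Sox11 and had 257.8 FPKM in the Brg1KO library and 616.0 FPKM in the WT library (log2 ratio -1.25). Among the higher ones, the neuronal gene Nrsn1, beside Sox4, had 10.7 FPKM in the Brg1KO library and 4.17 FPKM in the WT library (log2 ratio 1.18). The record C230004F18Rik, beside Sox3, had 4.37 FPKM in the Brg1KO library and 0.450 FPKM in the WT library (log2 ratio 1.89). The unnamed model Gm9866, beside Sox11, had 1.18 FPKM in the Brg1KO library and 0.0288 FPKM in the WT library (log2 ratio 1.09). The microRNA record Mir1897, beside Sox2, had 13.8 FPKM in the Brg1KO library and was listed at 0 in the WT library, with the status LOWDATA in both, so its ratio is not read. Without it, left out after its values were seen, 3 of 17 records were at least 2-fold higher, 1 was lower and 13 were within 2-fold, with a median of 0.22. Beside Sox1, which was lower, neither neighbour was lower by 2-fold. Arhgef7 had 43.2 FPKM in the Brg1KO library and 21.2 FPKM in the WT library, at the 2-fold limit, with a log2 ratio of 0.99 and a plain FPKM ratio of 2.04-fold, and its log2 ratio from midpoints was just past the limit. Tubgcp3 (log2 ratio -0.52) had 12.5 FPKM in the Brg1KO library and 18.4 FPKM in the WT library.

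Of the other 10 Sox genes of the mouse 5 were expressed, with a median log2 ratio of 0.04, and with 1 FPKM added 0 were at least 2-fold higher or lower. With no or smaller pseudocounts Sox7 and Sox12 passed 2-fold downward, 2 of the 5, and their plain FPKM ratios were 5.13-fold lower for Sox7 and 2.12-fold lower for Sox12. With upper-quartile scaling, median centring or bound midpoints 1 of the 5 was lower. Beside those described, Sox21, a SoxB2 repressor of progenitor genes, had 1.21 FPKM in the Brg1KO library and 1.09 FPKM in the WT library. Sox14 and Sry were listed at 0 in both libraries. Sox15 had 0.0649 FPKM in Brg1KO and 0.0239 FPKM in WT, and Sox30 had 0.0169 FPKM in Brg1KO and 0.0127 FPKM in WT. Over all 20 Sox genes the summed FPKM was 109.5 in the Brg1KO library and 292.6 in the WT library. Without Sox18 it was 104.4 in the Brg1KO library and 147.4 in the WT library (log2 ratio -0.49).

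**Figure D5:**
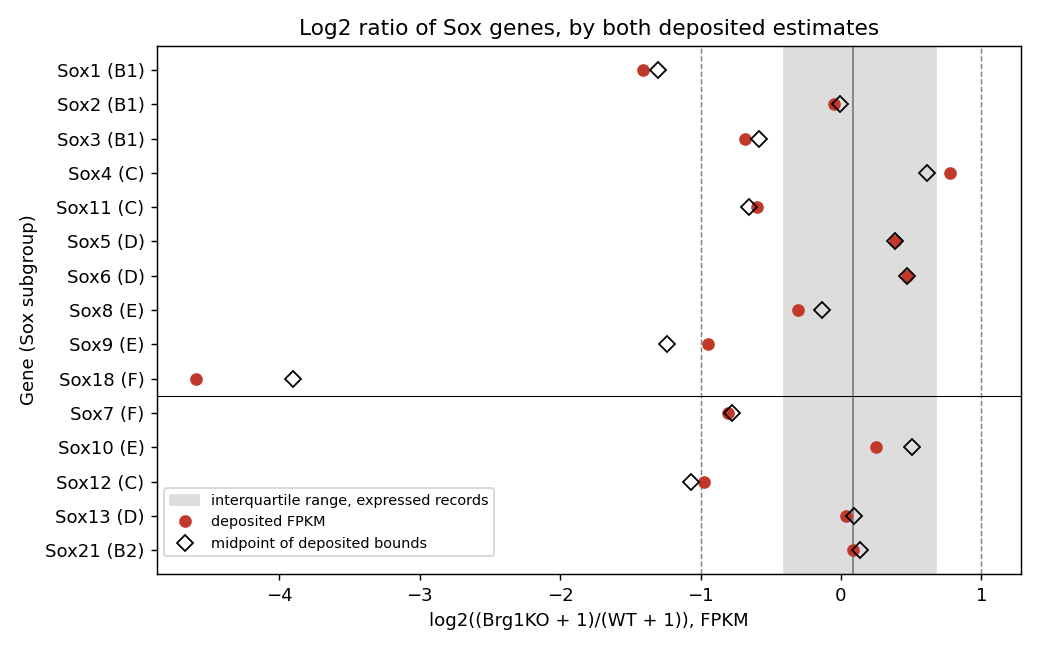
Log2 ratio of Brg1KO over WT for the 10 Sox genes (above the line) and the other 5 expressed Sox genes (below it), from FPKM (red circles) and from the midpoint of the deposited bounds (open diamonds), each with 1 added; the grey band spans the interquartile range of expressed records and dashed lines mark 2-fold. Sox18 lies at -4.59 and -3.91 and Sox1 at -1.41 and -1.30, while Sox9 and Sox12 cross the 2-fold line between the estimates.

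By FPKM the order of the 10 genes in the Brg1KO library was Sox11, Sox4, Sox1, Sox2, Sox8, Sox18, Sox9, Sox5, Sox6 and Sox3. In the WT library it was Sox18, Sox11, Sox1, Sox2, Sox8, Sox9, Sox4, Sox5, Sox6 and Sox3. By FPKM Sox18 was at place 6 in the Brg1KO library and Sox4 at place 2, while Sox5, Sox6 and Sox3 were the weakest in both. By bound midpoints the Brg1KO order changed to Sox4, Sox11, Sox2, Sox1, Sox9, Sox8, Sox18, Sox5, Sox6 and Sox3. Sox2, Sox8, Sox9 and Sox4 lay between 9.55 and 10.5 FPKM in the WT library, and with bound midpoints between 9.92 and 22.8 their order changed to Sox9, Sox4, Sox2 and Sox8, so the order among them is not fixed by these data.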

How the data were processed

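Total RNA from dissected tumour tissue was sequenced on an Illumina instrument, per the labels' protocols, with 1 library per genotype. The authors deposited FPKM per gene with a lower and an upper bound and a status, per the file headers. Cuffdiff 2.1.1 and mm10 are named in the submitters' processing notes without a role, and the aligner, the annotation, the strand setting and the method behind the bounds were not stated in the sources read. No read counts were used, and no common step of whole reads was found among 650 records under 0.05 FPKM in both libraries (fullest log2 bin 50 records), so the depth is unknown and no counting interval is given.

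Starts in the files count from 0 and were raised by 1. A log2 ratio is log2((Brg1KO FPKM + 1)/(WT FPKM + 1)), and records of at least 1 FPKM in 1 library were called expressed. A listed gene could thus pass through 1 library alone. A 2-fold rule took the place of a test, and the calculation was checked on simulated data. Named genes were taken from all Sox genes, Smarca4, up to 4 genes per list with the largest ratio past 2-fold (or the 2 most abundant), chromosomal neighbours and the 5 records nearest to Sox18. Some further genes (Xist, Ddx3y, Cdh5, Pecam1, Nfia, Rgs19, Oprl1, Vim, Pax6, Zic1, Lyve1, Elavl3, Elavl4, Gap43, Rbfox3, Tubb3, Flt1, Tek, Tie1, Kdr, Esam, Cspg4, Lum, Col1a1, Pdgfrb, Rgs5, Col2a1, Acan, Comp, Hapln1, Matn1) were named after their values were seen. One gene that this rule names is not reported here. The Sox genes and the 17 gene lists were chosen with earlier results of these data known. The log2 ratios of Sox genes were recomputed with other pseudocounts, scalings and bound midpoints, and the counts and medians also with other thresholds and filters. The tools were Python 3.11.15 with pandas 2.3.3, numpy 2.4.6 and matplotlib 3.10.9, with GENCODE M21 for exons and RefSeq for promoters.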

Additional observations from a re-analysis of the deposited data

How the results depend on the processing

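Sox1 and Sox18 kept their direction and stayed past 2-fold under each of 8 alternatives to the pseudocount, the scaling and the FPKM column, with log2 ratios of -1.50 to -1.24 for Sox1 and -4.84 to -3.91 for Sox18. Sox9 ranged from -1.24 to -0.79 and passed 2-fold under 5 of the 8, namely the smaller or no pseudocounts, median centring and bound midpoints. Sox3 ranged from -2.11 to -0.58, with the pseudocount setting most of it. Sox2 ranged from -0.14 to 0.11 and changed sign. With a 1.5-fold rule 4 of the 9 genes were lower and 1 higher, beside 2386 lower and 3727 higher expressed records. With a 4-fold rule 1 gene was lower, beside 199 lower and 554 higher records. The SoxB1 sum reached -1.04 after median centring. Rescaling to the same FPKM sum moved the median of expressed records by 0.15, the only alternative scaling or estimate to move it by more than 0.1. No paired analysis was possible because each genotype has 1 library. Without replicates or counts, neither the spread between animals nor the counting error can be given.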
